A study of Mus musculus with 4 samples.

Results

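The liver X receptors and 7 genes of cholesterol efflux and lipoprotein handling were followed across 4 mRNA sequencing libraries of mouse bone marrow cells. The set was chosen by name: the receptor genes Nr1h3 and Nr1h2, the efflux transporter genes Abca1 and Abcg1, the genes of secreted lipid carriers and enzymes Apoe, Pltp and Lpl, and Mylip and Lpcat3. Each of the 9 matched 1 gene ID among the 37681 in the count tables. They lie on chromosomes 2 (Nr1h3 and Pltp), 4 (Abca1), 6 (Lpcat3), 7 (Nr1h2 and Apoe), 8 (Lpl), 13 (Mylip) and 17 (Abcg1). All cells were labelled as wild type C57BL/6, without a stated sex or age, and their medium held L929 supernatant, which supplies the growth factor M-CSF. Cells with and cells without an shRNA against lncRNA-COX2 were either left unstimulated or exposed for 5 h to 100 nM Pam3Cys4, a lipopeptide sensed by TLR2 with TLR1. These 4 groups had 1 library each, so differences have no replicate check, and the intervals given reflect counting error alone. The titles of both libraries without shRNA carry the letters EV, with no meaning given, and a control construct in those cells cannot be read from the labels. How the shRNA was delivered and how many mice gave cells is not stated there either. The level of lncRNA-COX2 was not analysed here, so how far the shRNA lowered it is unknown.

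LXRs are nuclear receptors that sense oxysterols and desmosterol, which accumulate when a cell holds much cholesterol. Bound to DNA together with a retinoid X receptor (RXR), they turn on genes that move cholesterol out of the cell, load it onto lipoproteins and remodel membrane phospholipids. In macrophages they are known for cholesterol export and for dampening inflammatory genes. A classical binding element is a direct repeat of AGGTCA with a spacer of a few bases.

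Promoter sequence is shown for Abca1, which of the set was alone in reaching 2-fold after Pam3Cys4, and for Nr1h3, the gene with the largest shRNA ratio. RefSeq start-site windows (GRCm38.p6) of 250 bases before and 50 after a start were found for 7 of the 9 genes and not for Abcg1 and Lpl. They were searched on both strands for AGGTCA, any 4 bases and AGGTCA again, with at most 3 mismatches in the 12 fixed letters. Of the 10 windows of the set, 1 held a match, at Abca1 on the strand opposite to the gene, from 67 to 52 bases before the start. Among all 32851 mouse windows 21.9% held such a match, so a match at this tolerance is common. The upstream 250 bases of both genes follow, 5′ to 3′ on the gene's strand, with the match in capitals.
Abca1, chr4:53159896-53160145, minus strand: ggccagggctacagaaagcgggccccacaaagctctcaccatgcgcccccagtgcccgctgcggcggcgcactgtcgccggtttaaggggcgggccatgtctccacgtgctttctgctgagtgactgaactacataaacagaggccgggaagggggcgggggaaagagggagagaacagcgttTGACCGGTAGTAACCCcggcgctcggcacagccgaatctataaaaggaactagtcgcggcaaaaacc
Nr1h3, chr2:91195117-91195366, minus strand: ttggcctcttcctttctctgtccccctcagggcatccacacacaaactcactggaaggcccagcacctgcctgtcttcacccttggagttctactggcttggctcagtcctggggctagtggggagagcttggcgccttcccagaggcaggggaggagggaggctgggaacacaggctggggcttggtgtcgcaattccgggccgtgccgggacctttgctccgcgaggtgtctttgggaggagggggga
The Nr1h3 window held no match, which says only that these letters are not in it. For comparison, 1 of the 3 windows of Srebf1, a known LXR target that drives fatty acid synthesis, held a match with 3 mismatches as well, from 182 to 167 bases before its start. Both matches are printed here on the gene's strand, with the 2 repeat units in capitals.
Abca1 match: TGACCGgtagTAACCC
Srebf1 match: TGACCGccagTAACCC

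Libraries held 47385277 to 65826838 gene reads. Macrophage markers were abundant, with 9 or 10 of 10 matched genes at 5 CPM (counts per 1000000 reads after scaling) or more and a summed level of 6029 to 8543 CPM. All 6 hepatocyte markers were at 0 counts in every library, 4 of 6 adipocyte markers were at 0 (Adipoq, Cfd, Lep and Cidec) and that list summed to at most 0.139 CPM. Stromal markers summed to 1.97 to 6.57 CPM, with 4 of 9 at 0 (Col1a2, Col3a1, Pdgfra and Thy1). Lymphocyte markers reached at most 1.41 CPM and endothelial markers 32.8 to 67.9 CPM. Libraries with and without shRNA stood apart in several ways. Summed interferon-stimulated genes were at 266 and 933 CPM without shRNA (unstimulated, then Pam3Cys4) and 3498 and 11698 CPM with it. Summed granulocyte markers were at 8.69 and 20.8 CPM in cells without shRNA, and 0.630 and 1.68 CPM with it, with S100a9, Ly6g, Elane, Ngp, Ltf and Retnlg at 0 throughout. That sum was carried by Cebpe (412 and 444 counts against 10 and 6) and Mmp8 (31 and 588 against 7 and 27), while S100a8, Camp and Prtn3, at 28 counts or fewer, had more counts with shRNA. Summed dendritic cell markers were at 11.3 and 28.4 against 3.60 and 4.41 CPM. Itgax (246 and 1254 counts against 17 and 89) gave 24.8 CPM of the sum after Pam3Cys4 without shRNA. Zbtb46 (102 and 54 against 14 and 11) and Batf3 (217 and 78 against 196 and 40) were also lower with shRNA. Xcr1 (10 and 35 against 7 and 80) and Ccr9 (3 and 4 against 5 and 21) had more counts with shRNA after Pam3Cys4. The Y-linked gene Ddx3y had 3 and 4 counts without shRNA and 921 and 1116 with it, and 2 more Y-linked genes had at most 1 count in either library without shRNA. With it, those genes, Kdm5d and Uty, had 320 to 730 counts. Eif2s3y, also Y-linked, had 3 and 6 counts without shRNA and 0 in both libraries with it. Xist, the RNA of X inactivation, had at most 2 counts in any library. Each shRNA ratio below is therefore also a comparison of cells that differ in these measures, and the part of these differences in the results was not tested. In bulk RNA, fewer cells of a type and less RNA per cell cannot be told apart.

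**Figure D1:**
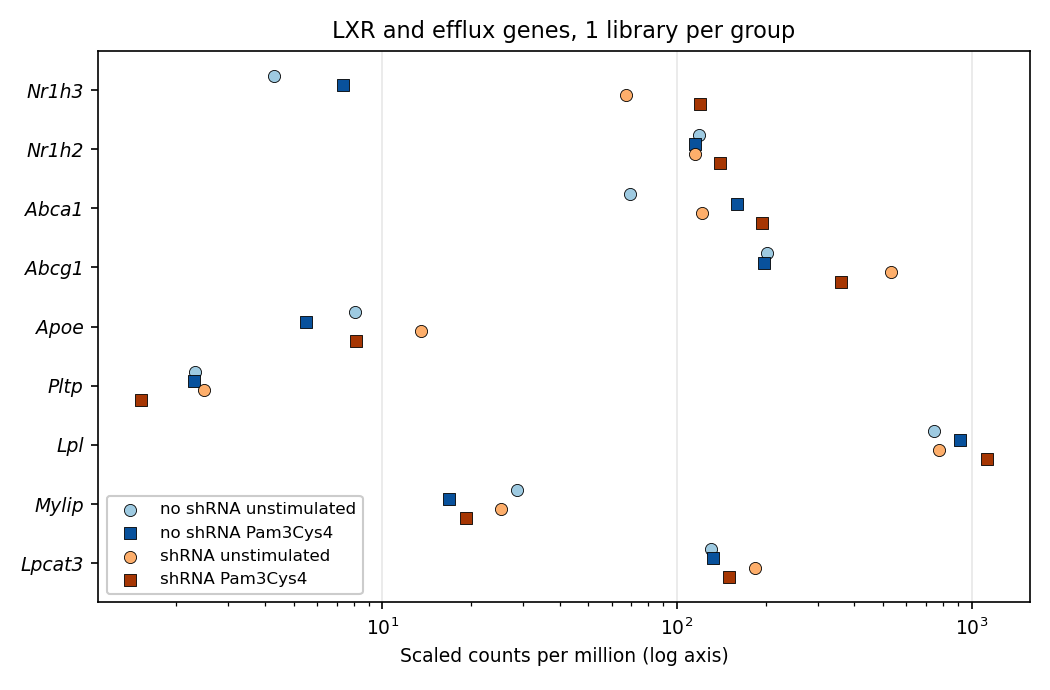
Scaled CPM (log axis) of the 9 genes, 1 point per library; circles are unstimulated and squares Pam3Cys4, blue without and orange with shRNA. Nr1h3 spans 4.30 to 119.7 CPM, while Nr1h2 stays between 115.1 and 139.6 CPM.

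Among the receptors, the transcript of LXRα, Nr1h3, was scarce without shRNA and abundant with it. In cells without shRNA it had 224 counts (4.30 CPM) unstimulated and 373 counts (7.38 CPM) after Pam3Cys4. In cells with shRNA it had 4488 counts (67.4 CPM) and 6568 counts (119.7 CPM) in that order, which is kept below. Both libraries with shRNA lay far above both without. The shRNA ratio of Nr1h3 was 15.7 in unstimulated cells (95% counting interval 13.7 to 18.0) and 16.2 after Pam3Cys4 (14.6 to 18.0). Pam3Cys4 went with a smaller difference, 1.72-fold without shRNA (1.45 to 2.04) and 1.78-fold with it (1.71 to 1.85). The ratio of these 2 stimulation folds was 1.03 (0.872 to 1.23), an interval that includes 1. The gene entered the unstimulated shRNA comparison only through the library with shRNA, since it lay under 5 CPM in the other. In GENCODE vM21, 34 of its exon bases are shared with Gm13783 on the same strand.

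The LXRβ gene Nr1h2, which is expressed in most tissues, was by contrast nearly level. It stood at 118.7 and 115.1 CPM in cells without shRNA, and 115.5 and 139.6 CPM with it. The library with shRNA and Pam3Cys4 was the highest, 1.21-fold above each of its 2 comparison libraries (1.17 to 1.25 for both), and the remaining 3 libraries differed little. Per kb of exon model, Nr1h2 exceeded Nr1h3 20.7-fold and 11.7-fold without shRNA, but 1.29-fold in unstimulated cells with shRNA. After Pam3Cys4 with shRNA, Nr1h2 was at 0.875 of the Nr1h3 level, or at 1.14 with the length of the longest principal transcript in place of all exons, so the order of the 2 receptors in that library depends on the length used.

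RXR genes, which encode the DNA-binding partners, were examined beside the LXRs. Rxra, which forms a heterodimer with either LXR, was low in all libraries and lower with shRNA: 451 and 222 counts without shRNA (8.65 and 4.39 CPM) against 54 and 40 with it (0.810 and 0.729 CPM). That made it 10.7-fold lower with shRNA in unstimulated cells (8.04 to 14.4) and 6.03-fold lower after Pam3Cys4 (ratio 0.166, 0.115 to 0.233), where both libraries were under the 5 CPM filter. Rxrb was the main RXR transcript in every library, at 29.1 and 21.2 CPM per kb without shRNA and 25.0 and 17.3 with it, and Rxrg had at most 1 count. Unlike Nr1h3, Rxrb fell with Pam3Cys4 in the additive test described below (log2 -0.50, SE 0.12, adjusted p 0.0435 by edgeR's quasi-likelihood test) and did not pass for shRNA (adjusted p 0.179).

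**Figure D2:**
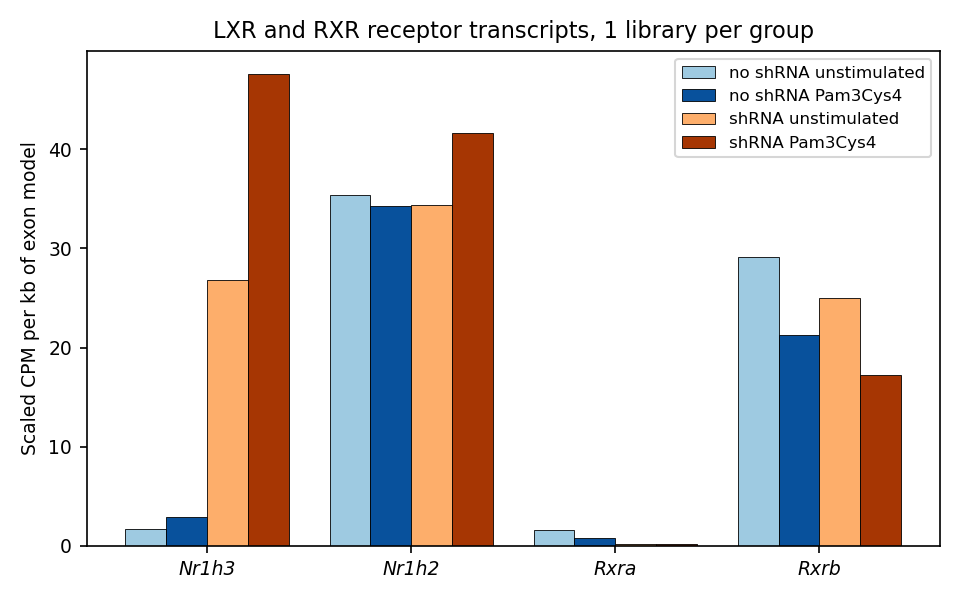
Scaled CPM per kb of exon model (linear axis from 0) for the LXR genes Nr1h3 and Nr1h2 and the RXR genes Rxra and Rxrb, 1 bar per library. Nr1h3 goes from 1.71 and 2.94 without shRNA to 26.8 and 47.6 with it, Rxrb lies between 17.3 and 29.1, and Rxra does not exceed 1.58.

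Of the efflux transporters, Abca1, which hands cholesterol and phospholipid to lipid-poor apolipoprotein A-I, was higher after Pam3Cys4 in both shRNA states. Its levels were 69.5 and 159.6 CPM in cells without shRNA, and 121.6 and 193.7 CPM with it. Unstimulated cells without shRNA held the least, and the spread over the libraries was 2.79-fold. The Pam3Cys4 ratio was 2.30 without shRNA (2.21 to 2.39) and 1.59 with it (1.55 to 1.64). The shRNA ratio of Abca1 was 1.75 in unstimulated cells (1.68 to 1.82) and 1.21 after Pam3Cys4 (1.18 to 1.25).

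Abcg1, which passes cholesterol on to mature high-density lipoprotein, was higher with shRNA in both stimulation states. Levels of 202.3 and 196.7 CPM without shRNA stood against 533.8 and 360.8 CPM with it. Libraries with and without shRNA did not overlap, and the unstimulated library with shRNA was the highest. Its shRNA ratio was 2.64 in unstimulated cells (2.58 to 2.70) and 1.83 after Pam3Cys4 (1.79 to 1.88). Its Pam3Cys4 ratio was 0.973 without shRNA (0.946 to 1.00) and 0.676 with it (0.664 to 0.688). Both transporters had a smaller stimulation fold with shRNA than without: the ratio of folds was 0.694 for Abca1 (0.661 to 0.729) and 0.695 for Abcg1 (0.673 to 0.718).

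Secreted factors ranged from the most to the least abundant transcript of the set. Lpl, which encodes the lipase that releases fatty acids from triglyceride-rich lipoproteins, had 744.5 CPM in unstimulated and 911.5 CPM in stimulated cells without shRNA, and 772.6 and 1132 CPM in those with it. Per kb of exon model it was the highest of the 9 in each library, by either gene length, and it made up 42.1 to 58.9% of all reads of the set. It was 1.22-fold higher after Pam3Cys4 without shRNA (1.21 to 1.24) and 1.46-fold in cells with it (1.45 to 1.48). The shRNA ratio of Lpl was 1.04 in unstimulated cells (1.02 to 1.05), which turns to below 1 with library totals as the only scaling, and 1.24 after Pam3Cys4 (1.23 to 1.26).

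Apoe, the apolipoprotein by which macrophages export cholesterol on their own particles, was low here, with 8.10 and 5.52 CPM in cells without shRNA, and 13.6 and 8.14 CPM with it, from 279 to 904 counts. Within each shRNA state the Pam3Cys4 library was the lower, 1.47-fold without shRNA (1.26 to 1.71) and 1.67-fold with it (1.49 to 1.87). Within each stimulation state the library with shRNA was the higher, 1.68-fold (1.49 to 1.89) and 1.47-fold (1.27 to 1.72). Pltp, whose product moves phospholipids between lipoproteins, was the least abundant per kb in every library. It had 121 and 116 counts without shRNA and 166 and 83 with it, 1.51 to 2.49 CPM, and so stayed under the 5 CPM filter throughout. Its lowest library was Pam3Cys4 with shRNA, with a Pam3Cys4 ratio of 0.607 (0.461 to 0.795) there and 0.989 (0.760 to 1.29) without shRNA. In the GENCODE vM21 annotation, 495 exon bases of Pltp overlap Ctsa on the other strand, which stood at 1225 to 1448 CPM, and reads of the 2 genes cannot be told apart if counting ignored strand.

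Mylip and Lpcat3 act on protein turnover and on membrane lipids. Mylip encodes a ubiquitin ligase that limits lipoprotein uptake, and it was lower after Pam3Cys4. Levels of 28.6 CPM (unstimulated) and 16.8 CPM (Pam3Cys4) in cells without shRNA, and of 25.3 and 19.3 CPM in cells with it, put both stimulated libraries below both unstimulated ones. The gene was 1.70-fold lower after Pam3Cys4 without shRNA (1.56 to 1.85) and 1.31-fold lower with it (1.21 to 1.42).

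Lpcat3, which places polyunsaturated fatty acids into membrane phospholipids, was read at 130.7 and 132.5 CPM in cells without shRNA, and at 184.0 and 149.8 CPM in cells with it. The libraries with shRNA were the higher ones, 1.41-fold in unstimulated cells (1.37 to 1.45) and 1.13-fold after Pam3Cys4 (1.09 to 1.17). The Pam3Cys4 ratio was 1.01 without shRNA (0.979 to 1.05), a direction that turns with library totals as scaling, and 0.814 with it (0.792 to 0.837). Emg1, at 73.8 to 102.1 CPM, overlaps 334 exon bases of Lpcat3 on the other strand in GENCODE vM21, so part of these counts is uncertain as well.

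Per kb of exon model, the order of levels in unstimulated cells without shRNA was Lpl (71.1), Lpcat3 (40.0), Nr1h2 (35.4), Abcg1 (27.7), Mylip (8.84), Abca1 (6.71), Apoe (3.79), Nr1h3 (1.71) and Pltp (0.906). With shRNA and Pam3Cys4 it was Lpl (108), Abcg1 (49.4), Nr1h3 (47.6), Lpcat3 (45.8), Nr1h2 (41.6), Abca1 (18.7), Mylip (5.96), Apoe (3.81) and Pltp (0.590). Nr1h3 was thus in the eighth place in the one library and the third in the other, or, with the length of the longest principal transcript, in the eighth and the fifth. Only the first and the last place were the same in all 4 libraries with both gene lengths, and with no replicates the neighbours in between were not tested against each other. Summed over the 9 genes, levels were 1309 and 1547 CPM in cells without shRNA, and 1836 and 2124 CPM with it.

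**Figure D3:**
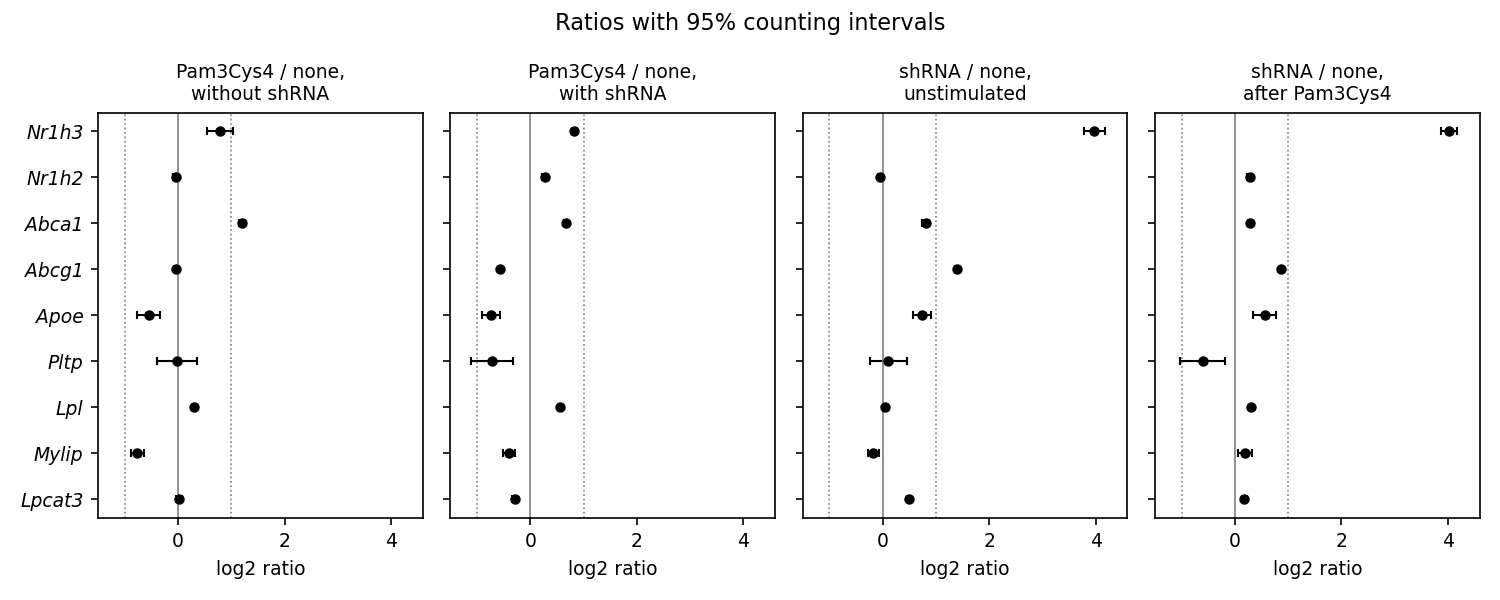
Log2 ratios of the 9 genes in the 4 comparisons, with 95% counting intervals as bars (often narrower than the point); dotted lines mark 2-fold. The shRNA ratios of Nr1h3, 3.97 and 4.02, stand far from the rest, which lie between -0.77 and 1.40.

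A gene was counted as 2-fold apart when its ratio reached 2 or 0.5, the interval excluded 1 and the higher library had at least 5 CPM. This filter passed 8 of the 9 genes in each comparison, all but Pltp. Of these, 1 (Abca1) was at least 2-fold higher after Pam3Cys4 without shRNA and 0 were lower, against 7.07 and 6.51% of 9555 genes tested. With library totals alone, the genes higher and lower over the whole table were 541 and 898 in place of 676 and 622. With shRNA present 0 of 8 were higher after Pam3Cys4 and 0 lower, against 6.3 and 3.53% of 9601 genes, 605 and 339 in number, or 494 and 466 with library totals. For shRNA in unstimulated cells, 2 (Nr1h3 and Abcg1) were higher and 0 lower, the latter against 4.82% of 9651 genes. Nr1h3 entered that comparison only through the library with shRNA, so the count of higher genes is not set against a share. After Pam3Cys4, 1 (Nr1h3) was higher and 0 lower with shRNA, against 9.0 and 5.58% of 9702 genes. Counts this small are near those shares, and they describe the genes without setting the set apart. Median log2 ratios over the 8 genes were -0.01 and -0.01 for Pam3Cys4 (without and with shRNA), beside -0.0008 and 0.02 over all genes tested. The median for shRNA after Pam3Cys4 was 0.30, beside 0.05 over all genes. For shRNA in unstimulated cells it was 0.62. That value includes Nr1h3 and, for the reason given above, is not set against all genes. For the ratio of stimulation folds, 0 of 8 genes were 2-fold apart, against 1.94% larger and 1.64% smaller of 9857 genes. Beside Abca1 and Abcg1, the interval lay below 1 for Lpcat3 (0.803, 0.769 to 0.839). It lay above 1 for Nr1h2 (1.25, 1.19 to 1.31), Lpl (1.20, 1.18 to 1.22) and Mylip (1.30, 1.16 to 1.45), and it included 1 for Nr1h3 and for Apoe (0.880, 0.728 to 1.06). The stimulation ratio without shRNA and the shRNA ratio in unstimulated cells share a library, as do the other adjacent pairs, so their values are given side by side and not correlated.

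An additive model over all 4 libraries (edgeR's quasi-likelihood test, adjusted over 9559 genes by Benjamini-Hochberg) took each state of one factor as a repeat for the other. It leaves 1 residual degree of freedom, and variation between independent cultures is not part of its p-values. With stimulation, 2 of 8 tested genes rose, against 11.9% of all genes: Nr1h3 (log2 0.81, SE 0.13, adjusted p 0.0182) and Abca1 (log2 0.93, SE 0.16, adjusted p 0.0239), each higher in 2 of 2 shRNA states. No gene of the set fell at an adjusted p under 0.05, against 10.9% of all genes, with 2 lower at an unadjusted p under 0.05 by edgeR, Apoe (log2 -0.65, SE 0.17, adjusted p 0.0528) and Mylip (log2 -0.58, SE 0.16, adjusted p 0.0595), and 0 by DESeq2 after adjustment. Lpl missed the threshold too (log2 0.42, SE 0.13, adjusted p 0.0785).

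With shRNA, the same test had 2 of 8 genes rise and 0 fall, the latter against 8.66% of all genes. Without shRNA, Nr1h3 reached 5 CPM only after Pam3Cys4, so it needed the libraries with shRNA, where it is high, to pass the filter. The count of rising genes is therefore not set against the share over all genes. Nr1h3 rose by log2 3.99 (SE 0.14, adjusted p 0.000458) and Abcg1 by log2 1.14 (SE 0.17, adjusted p 0.0131), both higher in 2 of 2 stimulation states. Apoe (log2 0.65, SE 0.17, adjusted p 0.0543) and Abca1 (log2 0.54, SE 0.16, adjusted p 0.0817) did not pass in edgeR, and Abca1 passed with DESeq2 (adjusted p 0.0312). For Nr1h2, Lpl, Lpcat3 and Mylip the adjusted p was 0.556, 0.364, 0.14 and 0.979. Of the 8 estimates 7 were above 0 under every scaling, Mylip was at 0.01 and turned with library totals (-0.09) and DESeq2 size factors (-0.01), and 0 genes were lower at an unadjusted p under 0.05 by edgeR or by DESeq2. Over all genes, 5155 of 9559 estimates were above 0 with the main scaling. The interferon-stimulated, Y-linked, granulocyte and dendritic cell levels given above differ between the same libraries, and their part in these shRNA differences was not tested.

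Other LXR targets did not share 1 direction with shRNA. Of 29 listed genes 17 were tested, and 5 rose and 3 fell in the additive test, the latter against 8.66% of all genes. Of the 5, Apoc2 and Mertk passed the 5 CPM filter only through the libraries with shRNA, where they are high. The count of rising genes is therefore not set against the share over all genes. Apoc2, a lipoprotein cofactor of lipoprotein lipase, went from 2.46 and 2.44 CPM without shRNA to 35.8 and 20.0 CPM with it, ratios of 14.6 and 8.23. Mertk, a receptor for apoptotic cells that is also a macrophage marker, was 7.90-fold and 7.36-fold higher, and the desaturase gene Fads2 2.80-fold and 2.69-fold. Fads1, the other desaturase of that pathway, was 2.44-fold and 2.52-fold lower, and Scd2, a stearoyl-CoA desaturase, was 2.26-fold lower after Pam3Cys4. Srebf1, whose matching element is printed above, stood at 257.4 and 244.4 CPM in cells without shRNA, and 345.4 and 258.0 CPM with it, and did not pass (adjusted p 0.248). With Pam3Cys4, 1 of the 17 rose (Vegfa, the vascular growth factor, log2 0.90, adjusted p 0.0336) and 6 fell, against 11.9 and 10.9% of all genes. Arl4c, a small GTPase linked to cholesterol transport, went from 117.9 to 50.6 CPM without shRNA and from 153.2 to 37.2 CPM with it. Mertk was also lower after Pam3Cys4, 4.84-fold with shRNA. In the same comparisons Abca1 and Nr1h3 were higher, so their direction was not that of most listed targets: 3 of 16 had a stimulation ratio above 1 without shRNA and 3 of 17 with it, with medians of log2 -0.31 and -0.50. Over all genes tested, 4771 of 9555 and 4941 of 9601 had a ratio above 1.

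Genes of ligand supply and removal were mostly under the filter. Of 9, 3 were tested in the additive model. Cyp27a1, which makes 27-hydroxycholesterol, fell with shRNA (log2 -1.32, SE 0.16, adjusted p 0.00744, edgeR quasi-likelihood). Cyp27a1 levels were 17.0 and 11.8 CPM in cells without shRNA, and 6.95 and 4.66 CPM with it. Ch25h, the cholesterol 25-hydroxylase known as interferon-inducible, had 0 and 11 counts without shRNA and 20 and 734 with it. After Pam3Cys4 it was 61.4-fold higher with shRNA (34.1 to 124), and with shRNA present it was 44.5-fold higher after Pam3Cys4 (28.6 to 73.4). Among 17 tested partners and coregulators, 3 rose with shRNA and 0 fell, against 12.3 and 8.66% of all genes. They were Tbl1xr1, a subunit of the nuclear corepressor complex (2.85-fold and 2.80-fold higher, adjusted p 0.00238), Ncoa6, a coactivator (adjusted p 0.015), and Gps2, another corepressor subunit (adjusted p 0.0392). Rxra, lower with shRNA as given above, was not among the 17. It reached 5 CPM only in unstimulated cells without shRNA, so the filter left it out and the 0 that fell does not cover it. With Pam3Cys4, 0 of these 17 rose and 4 fell, against 11.9 and 10.9% of all genes. Those 4 were Ncoa2 and Ncoa3, both steroid receptor coactivators, Nrip1 and Rxrb.

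In the list of lipase partners and lipid uptake, 7 of 12 tested genes rose with shRNA and 1 fell, the latter against 8.66% of all genes. Of the 7, Pparg and Lipg reached 5 CPM only in the libraries with shRNA. Fabp4 and Angptl4 reached it in 1 library without shRNA and also needed those with shRNA to pass the filter. The count of rising genes is therefore again not set against the share over all genes. Pparg, the nuclear receptor of lipid storage, had 42 and 22 counts without shRNA and 1676 and 1007 with it, ratios of 31.2 and 42.1. Fabp4, a fatty acid carrier, was 24.0-fold and 6.77-fold higher. Lipg, the endothelial lipase gene, had 3 and 11 counts without shRNA and 4313 and 25532 with it, ratios of 1125 (385 to 5456) and 2136 (1194 to 4280). Ppard, a further nuclear receptor of lipid metabolism, was 3.34-fold lower with shRNA than without it among stimulated cells. With Pam3Cys4 it went from 21.0 to 115.7 CPM in the absence of shRNA and from 13.0 to 34.6 CPM in its presence. Among 22 tested genes of cholesterol traffic and storage, 6 rose with shRNA and 2 fell, against 12.3 and 8.66% of all genes. Nceh1, which hydrolyses stored cholesteryl ester, was 3.68-fold and 4.06-fold higher, and Npc2, which carries cholesterol out of the lysosome, 2.28-fold in unstimulated cells. Cav1, a caveola protein, had 0 counts in both libraries without shRNA and 77 and 588 with it. Among stimulated cells it was at least 146-fold higher with shRNA by the lower 95% counting limit. The library differences in interferon-stimulated and Y-linked genes given above stand beside these values too.

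With Pam3Cys4, 3 of 12 tested lipase partners and uptake genes rose and 1 fell, against 11.9 and 10.9% of all genes. Msr1, a scavenger receptor for modified lipoproteins, was 5.40-fold higher without shRNA and 3.80-fold with it, while Angptl4, an inhibitor of lipoprotein lipase, was 3.21-fold lower in both shRNA states. Of 22 tested traffic and storage genes 3 rose and 4 fell, against the same shares. Gramd1a, a sterol carrier between plasma membrane and endoplasmic reticulum, was 2.80-fold higher without shRNA. Insig1, which holds back sterol synthesis, was 2.35-fold lower with shRNA present, and Nceh1 fell (log2 -0.90, SE 0.12, adjusted p 0.0136, edgeR quasi-likelihood). The ratio of stimulation folds was at or below 0.5 for 1 of 18 other LXR targets (Rnf145, 0.489) and for 3 of 11 lipase partners, Fabp4 (0.282), Plin2 (0.410) and Ppard (0.483), against 1.64% of all genes.

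**Figure D4:**
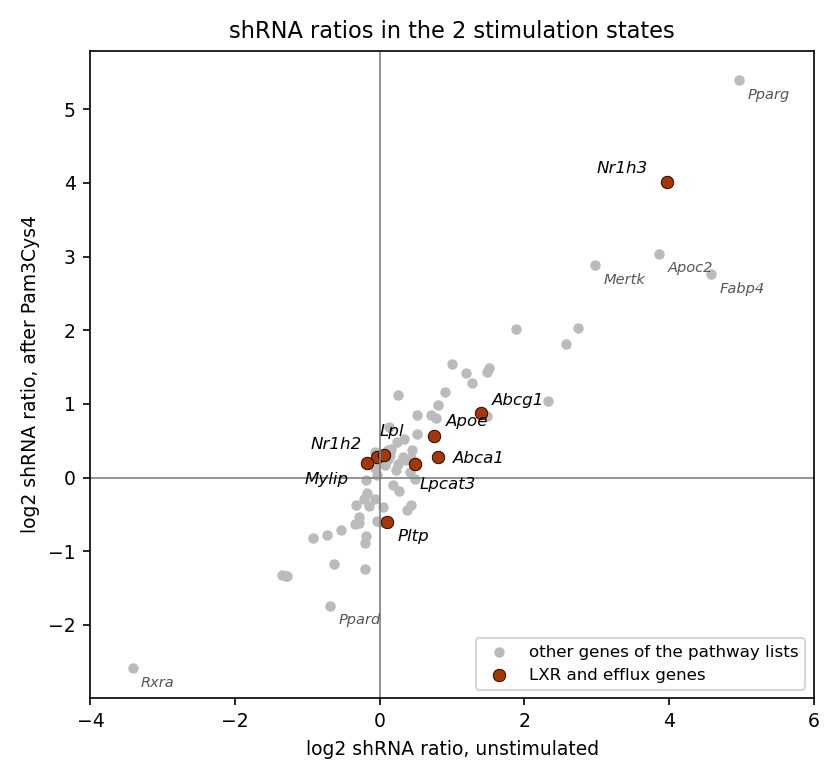
Log2 shRNA ratio in unstimulated cells (x axis) and after Pam3Cys4 (y axis) for the 9 genes (filled) and 72 other pathway genes (grey). The grey genes have at least 10 counts in every library and at least 5 CPM in the highest. Nr1h3 lies at 3.97 and 4.02, Abcg1 at 1.40 and 0.87, Rxra at -3.42 and -2.59, and the other 7 genes of the set within 0.81 of 0 on both axes.

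Profiles most like those of the set were sought among 6598 genes with a mean of at least 20 CPM, by Euclidean distance between centred log2 CPM over the 4 libraries. With so few libraries this is a description of level patterns only. Nearest to Nr1h3 were Ahnak2 (distance 0.29) and Epsti1 (0.39). Epsti1 stood at 2.42 and 5.05 CPM in cells without shRNA, and 36.7 and 90.3 CPM with it. Next came Oas1a (0.53), a gene of the interferon-stimulated list, at 6.00 and 12.4 against 73.6 and 127.9 CPM. Nearest to Abca1 was Pik3cb (0.09), at 50.7 and 119.0 CPM in cells without shRNA, and 83.3 and 140.7 CPM with it. Abcg1 had a more distant nearest neighbour, Zranb3 (0.19), at 33.8 and 33.4 against 77.5 and 61.6 CPM. For Lpl it was Foxp1 (0.034) and for Mylip Lsm11 (0.043).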

How the data were processed

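Transcript counts were analysed for 4 libraries, 1 for each group in the labels. The deposited values are read counts per Ensembl gene ID, made by the authors with CASAVA 1.8, TopHat alignment to NCBIM37 and HTSeq, per the submitters' processing notes. Which versions and gene annotation were used, and whether counting used strand, is not given in the sources used here. Totals that name no gene, 32.5 to 34.4% of all, were left out, and alignments to several places alone were 27.0 to 29.9%, so genes with close copies are undercounted. Symbols and exon lengths came from GENCODE vM21, on another build, without its coordinates, and promoter windows came from RefSeq on GRCm38.p6. Of 37681 IDs, 32642 matched a symbol.

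TMM factors (0.924 to 1.10) from edgeR 4.0.16 in R 4.3.3 scaled the counts, given as CPM, the count per 1000000 scaled reads. Ratios have exact 95% conditional binomial intervals, and the ratio of stimulation folds, for genes with at least 10 counts in every library, has a delta-method interval. A count of 0 was set to 3 for the ratio itself, while the interval limits used the observed counts. The additive test was edgeR's quasi-likelihood F test on genes with at least 5 CPM in 2 libraries (common biological coefficient of variation 0.137, prior degrees of freedom 3.76), with DESeq2 1.42.0 as an alternative. SEs were derived from log2 change and F. Intervals and the test were checked on simulated data. Alternatives were other scalings, no filter and a 1.5-fold threshold. A second gene length, that of the longest principal transcript, was chosen after seeing the data.

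The 9 genes and the pathway and marker lists were chosen with earlier results of these data known. In the pathway lists 99 of 100 symbols matched. Named outside the 9 were up to 3 genes per list, comparison and direction with the largest ratios past 2-fold. Chosen after their values were seen were Rxrb, Rxrg, Srebf1, Gps2, Ncoa3, Ncoa6 and Nrip1, the Abca1 and Nr1h3 windows, and the motif tolerance. No level of lncRNA-COX2 was analysed here, and results for some listed genes are not reported here.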

Additional observations from a re-analysis of the deposited data

Results flagged for a closer look

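Mylip was the only one of the 9 genes whose shRNA ratios pointed in opposite directions in the 2 stimulation states with both counting intervals excluding 1. It was at 0.884 of the level without shRNA in unstimulated cells (0.824 to 0.949) and at 1.15 of it after Pam3Cys4 (1.05 to 1.26). Its stimulation fold with shRNA over that without was 1.30 (1.16 to 1.45). With 1 library per state, the difference itself was not tested against replicates. For the 2 Pam3Cys4 ratios, 0 of the 9 genes met this description.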

How the results depend on the processing

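No paired analysis was possible because each group has 1 library and the labels give no replicate numbers. For the same reason leaving out a library was not possible for any ratio. With library totals as the only scaling, the median log2 ratio of all genes moved to -0.19 (Pam3Cys4 without shRNA) and -0.12 (with shRNA), and 3 ratios of the set, none of them 2-fold, turned: Lpcat3 for Pam3Cys4 without shRNA (log2 0.02 to -0.16), and Pltp (0.10 to -0.02) and Lpl (0.05 to -0.07) for shRNA in unstimulated cells. Members past 2-fold were as many with either other scaling and without a filter as in the values reported. At 1.5-fold they were 2 higher and 1 lower for Pam3Cys4 in each shRNA state, and 4 higher (unstimulated) and 2 higher (Pam3Cys4) for shRNA. Over all genes the 1.5-fold counts were 1455 higher and 1493 lower (Pam3Cys4 without shRNA), 1301 and 1053 (with shRNA), 1277 and 985 (shRNA, unstimulated) and 1654 and 1167 (shRNA, Pam3Cys4). Without the CPM filter, where more genes enter, they were in the same order 1332 and 1242, 1289 and 892, 1318 and 1482, and 1610 and 1449, and 358 and 302 for the ratio of folds. The additive test called 2023 genes lower with stimulation and 1260 lower with shRNA under library totals. Then 2 members fell with stimulation, Apoe and Mylip (adjusted p 0.0215 and 0.0252, edgeR quasi-likelihood), and 1, Apoe, did with DESeq2 size factors (adjusted p 0.0468). Without a filter it called 2013 higher and 1857 lower with stimulation, with Lpl higher in addition (adjusted p 0.0359) and 2 members lower, and 2170 higher and 1874 lower with shRNA, with 4 members higher, Abca1 and Apoe in addition (adjusted p 0.0188 and 0.0208). The cause was not tested. Calls of Nr1h3 and Abca1 for stimulation and of Nr1h3 and Abcg1 for shRNA held under all 4 alternatives of that test. Depth limits Pltp most, with 83 to 166 counts.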
